A study of Mus musculus with 3 samples.

Results

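Haploid spermatid and sperm genes are genes used mainly in the last phase of male germ cell development, in which the round spermatid packs its chromatin, forms the acrosome and builds the flagellum. A list of 38 such genes was named from general knowledge of the mouse germ line, and all 38 were found in the GENCODE annotation on mm9 among 22359 protein-coding genes. For each gene the CTCFL peaks in its promoter, in its gene body and in its surroundings were recorded, and the same was done for all protein-coding genes. No expression value entered the choice, and none is given here. Earlier results of these data were known when the list was made, so the choice was not blind to them.

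The data come from mouse embryonic stem (ES) cells that carry a doxycycline-inducible CTCFL_V5_GFP transgene, in which CTCFL bears a V5 tag and GFP. In the induced group, cells received doxycycline for 3 days, were sorted for GFP and were used for ChIP-sequencing with the V5 antibody, while the control group was neither induced nor sorted. A CTCF antibody gave another library from ES cells. Each of the 3 conditions had 1 library, and the peak list used here is that of induced CTCFL_V5, with 7436 peaks on 21 chromosomes. The control and CTCF libraries were not analysed here, so peaks shared with CTCF could not be separated. ES cells are not spermatids, and the transgene supplies CTCFL from a promoter that is not its own. The cell type could not be checked against markers, since a list of peaks holds no expression. The list gives only a start and an end per peak, so the depth behind each peak is unknown and no spread between replicates exists.

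CTCFL, also known as BORIS, is the testis-specific paralog of the zinc finger protein CTCF, and both recognize GC-rich sequences through similar zinc finger domains. After meiosis, spermatids replace histones by transition proteins and then by protamines, and transcription stops while the chromatin condenses. Many genes of this phase have testis-specific promoters, and the activator CREM, which binds cAMP response elements (CREs), is a known regulator of many of them.

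Sites in the peaks near these genes that come close to the peak consensus are shown first, since they carry the positions described in the sections that follow. A consensus of 13 positions, CCNNNAGGGGGCG, of which 10 are fixed, was derived from the central 101 bp of 7405 peaks that do not lie near the spermatid genes. A match with at most 1 mismatch on either strand occurred in 46.7% of all peaks and in 2.49% of flanking windows of the same width. With at most 2 mismatches the shares were 80.0 and 23.6%, so a site with 2 mismatches is also common outside peaks. The consensus was derived from nearly the same peaks against windows at the same distance. The excess in peaks over flanks is therefore no independent evidence. The sites below lie in peaks at promoters or nearest to the genes named, with the 13 positions in capitals and 8 genomic bases on each side in lower case, read 5′ to 3′ on the strand of the match from mm9.
Zpbp promoter window (chr11:11362058-11362086, plus strand): gagcctcaCCTGCAGGGGGCGcccgcagc
Tssk6 promoter window (chr8:72425481-72425509, minus strand): acatgcccCCGCCAGGGGGCTacggcccc
Tssk3 promoter window (chr4:129168899-129168927, minus strand): agcggcagGCGACAGGGGGCGcaaagtgt
Odf2 promoter window (chr2:29746205-29746233, plus strand): tccacctgCCTCCTGGCGGCGcactcggc
Gapdhs upstream peak (chr7:31532701-31532729, plus strand): ttaggaggCCAGAAGGGGGCGctgagtcc
Peak nearest to Tnp2, Prm2 and Prm1 (chr16:10786615-10786643, minus strand): cagagaaaCCTGTAGAGGGCAgtgtgcgt
Odf1 downstream peak (chr15:38177036-38177064, plus strand): tggctccgCCACTAGGGGGCAccactgtg
In the substitutions given here, position 1 is the first base of the 13 at the 5′ side, and the letter of the consensus comes before that of the site. Zpbp and Gapdhs had sites without a mismatch. Tssk6 had G13T, Tssk3 had C1G and Odf1 had G13A. The Odf2 peak had 7 sites with 2 mismatches and none with fewer, and the one shown had A6T and G9C. The peak nearest to the protamine genes had 3 such sites and none with fewer, and the one shown had G8A and G13A. The peak at Tbpl1 held no site with up to 2 mismatches.

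CTCFL peaks were found at the promoters of 5 of the 38 genes, Tbpl1, Odf2, Zpbp, Tssk6 and Tssk3. A promoter peak is one whose center lay from -2 kb to +1 kb of a transcription start site (TSS) of a coding transcript. The share was 13.2%, with a 95% Wilson interval from 5.75 to 27.3% that covers counting error only. Among all protein-coding genes 11.2% had such a peak, a value inside this interval. Of the 83 further spermatid genes described at the end, 2.41% had one. The genes for the nuclear packaging proteins, the sperm glycolytic enzymes, the calcium channel subunits and the testis heat shock proteins had no promoter peak. A peak center inside the gene body was found in 4 genes (10.5%, interval 4.17 to 24.1%), compared with 15.0% of all genes. These were Odf2, Tbpl1, Zpbp and Izumo1, and in all but Izumo1 the peak was also the promoter peak. Within 40 kb of a TSS, 22 genes had a peak (57.9%, interval 42.2 to 72.1%), compared with 41.7% of all genes, a value just below the interval. With other settings the share in all genes mostly fell inside the interval. Within 20 kb the counts were 16 genes (42.1%, 27.9 to 57.8%) and 29.2% of all genes, and within 100 kb they were 26 genes (68.4%, 52.5 to 80.9%) and 60.3%. The 22 genes are not independent in this count, because Tnp2, Prm2 and Prm1 shared 1 peak and Tssk1 and Tssk2 shared another. The intervals treat genes as independent draws, so they do not serve as a test of the list against all genes. The other 16 genes had no peak within 40 kb of a TSS or in the gene body.

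The median distance from a TSS to the center of the nearest peak was 29208.5 bp in the spermatid genes, with a range from 54 to 886974 bp. The median over all protein-coding genes was 60908 bp. The spermatid genes were shorter than all genes, with a median length of 6797.5 bp compared with 15427 bp. They also lay closer to other genes, with a median distance to the nearest other coding TSS of 13628 bp compared with 20567 bp. The part of gene length and gene spacing in the distances was not tested.

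**Figure D1:**
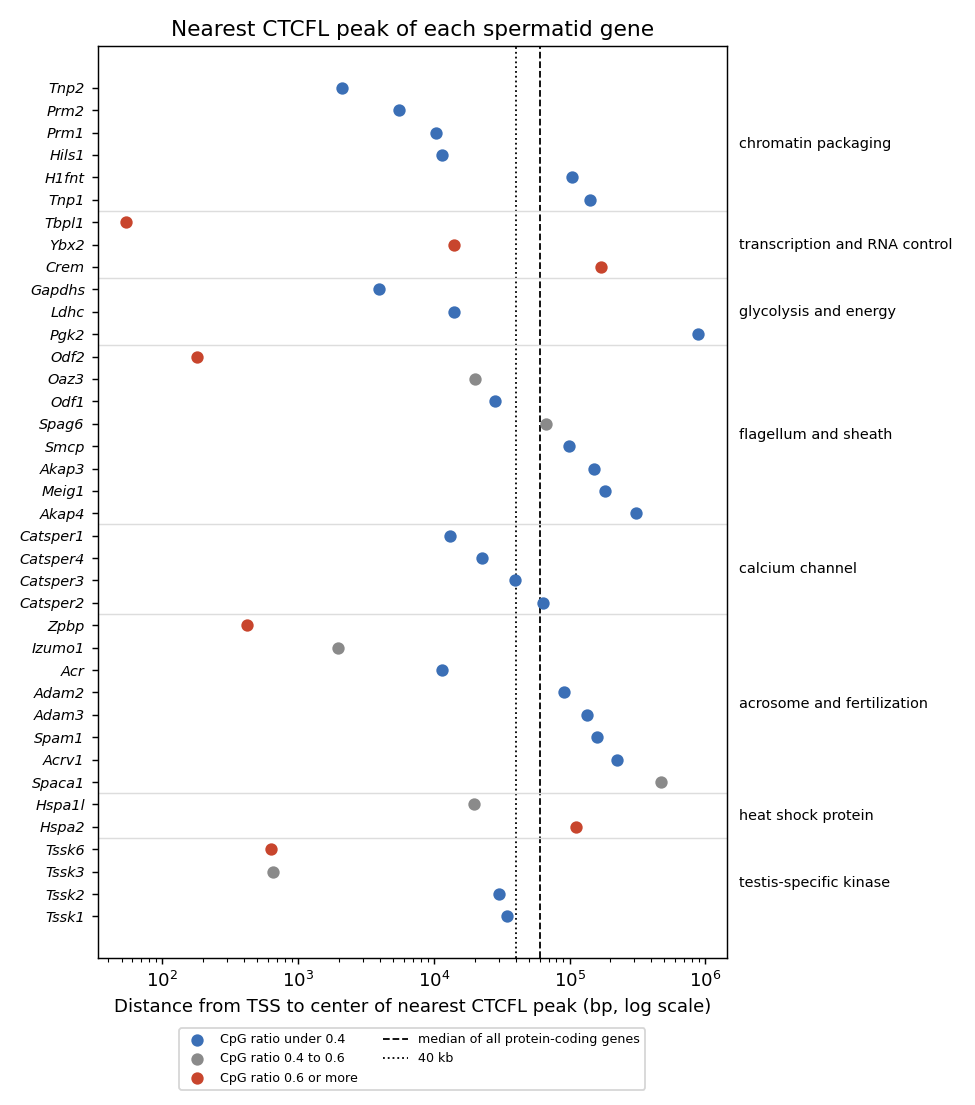
Distance in bp (log axis) from the nearest TSS of each of the 38 spermatid genes to the center of the nearest CTCFL peak, 1 point per gene, grouped by role and colored by promoter CpG ratio, with dotted and dashed lines at 40 kb and at the median of all protein-coding genes. The points run from 54 bp at Tbpl1 to 886974 bp at Pgk2, and 22 of them lie left of the 40 kb line.

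**Figure D2:**
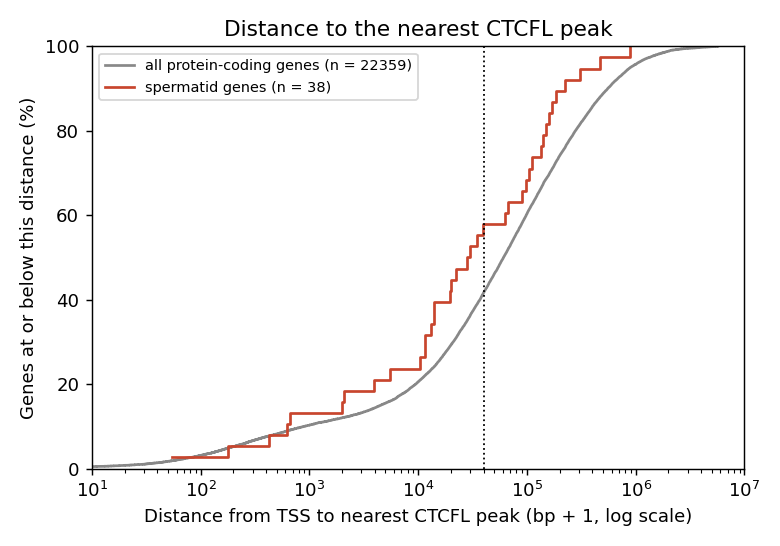
Cumulative share of genes (%) against the distance from a TSS to the nearest CTCFL peak (bp + 1, log axis), for the 38 spermatid genes and all 22359 protein-coding genes, with a dotted line at 40 kb. The curves are close below 1 kb and at 40 kb stand at 57.9% and 41.7%.

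The genes for chromatin packaging encode the proteins that replace or modify histones on sperm DNA. None of the 6 had a promoter or body peak. The genes Prm1, Prm2 and Tnp2 for protamines 1 and 2 and transition protein 2 lie in 1 cluster on chromosome 16, and all had the same nearest peak, chr16:10786354-10786954, 601 bp wide. Its center lay 2094 bp downstream of the TSS of Tnp2, 5544 bp downstream of that of Prm2 and 10325 bp downstream of that of Prm1. The peak was in the promoter window of Socs1, a suppressor of cytokine signaling, with its center at -1025 bp from the Socs1 TSS. With the wider window of -5 to +5 kb, Tnp2 would be counted as bound. Tnp1, which encodes transition protein 1 and lies on chromosome 1, was 141822 bp from the nearest peak. Hils1, a spermatid linker histone-like gene, had a nearest peak at 11529 bp and a further peak at -30458 bp in the promoter window of the collagen gene Col1a1. H1fnt, another testis linker histone gene, was 103489 bp from a peak.

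Among the genes for transcription and RNA control, Tbpl1 had the peak closest to a TSS of all 38 genes. Tbpl1 encodes a TBP-related factor needed for spermiogenesis. Its peak was chr10:22450869-22451212, 344 bp wide, with its center in an exon, 54 bp downstream of the nearest of 3 coding TSSs and 704 bp downstream of the most upstream one. In width it was rank 5828 of the 7436 peaks, and, being narrower than the median of 454 bp, it was lost when the narrower peaks were left out. Ybx2, a germ cell RNA-binding protein that stores mRNA for later translation, had its nearest peak 14027 bp upstream, and that peak was in the promoter window of Eif5a, a translation factor gene. Crem, with 21 annotated coding TSSs, had its nearest peak at 169803 bp. The promoters of these 3 genes were CpG-rich, with observed to expected CpG ratios of 0.765, 1.01 and 0.967.

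The sperm-specific glycolytic enzymes are encoded by copies of genes that other cells use. Gapdhs, the sperm glyceraldehyde-3-phosphate dehydrogenase, had an intergenic peak 3965 bp upstream with an exact consensus match, shown above. A further peak at 9846 bp downstream lay in the promoter window of Tmem147. Only 69.9% of the 36-base windows in the promoter of Gapdhs were unique in the genome. Ldhc, the testis lactate dehydrogenase, had 1 peak within 40 kb, 14029 bp upstream, and this was the promoter peak of its widely expressed neighbor Ldha. That peak, chr7:54102208-54102880, was 673 bp wide and its center was 43 bp from an Ldha TSS. Pgk2, a retroposed phosphoglycerate kinase gene, had the largest distance of the 38, 886974 bp. Its widely expressed paralog Pgk1 had a promoter peak with its center 298 bp from a TSS. Gapdh had a nearest peak at 3138 bp and a peak in the gene body. The other widely expressed lactate dehydrogenase gene, Ldhb, had no promoter peak and was 194308 bp from the nearest peak. Of 15 widely expressed paralogs in all, Ldha and Pgk1 were the 2 with a promoter peak (13.3%, compared with 11.2% of all genes).

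Of the 8 genes for the flagellum and its sheaths, Odf2 had a promoter peak. Odf2 encodes an outer dense fiber protein that is also found at centrosomes. The peak, chr2:29745945-29746533, was 589 bp wide and centered in an exon. Odf2 has 15 annotated coding TSSs over a short stretch, and 14 of them had the peak in their window. The center was 179 bp downstream of an internal TSS and 1498 bp downstream of the most upstream TSS, which alone had it outside the window. The CpG ratio of these TSSs ranged from 0.259 to 0.966. A further peak at -19929 bp, 841 bp wide, lay in the promoter windows of Cercam and 2600006K01Rik. Odf1, the other outer dense fiber gene, had a peak 28200 bp downstream in which 60.4% of windows were unique. Oaz3, a testis antizyme, had its nearest peak at 20037 bp and a further one at 23388 bp in the promoter window of Tdrkh. The other 5 genes had no peak within 40 kb. These were Spag6 at 67250 bp, Smcp at 98386 bp, Akap3 at 150706 bp, Meig1 at 183687 bp and Akap4, on the X chromosome, at 307855 bp.

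The 4 Catsper genes encode the pore subunits of the sperm calcium channel, and none had a promoter or body peak. Catsper1 had 4 peaks within 40 kb, the most of any of the 38 genes, and all 4 lay in or at other genes. The nearest, at 13247 bp, was in the promoter window of Cst6, another at 31011 bp was in those of Eif1ad and Banf1, and the remaining ones lay in exons of Gal3st3. Catsper4 had a peak at 22497 bp. Catsper3 was just inside the limit at 39839 bp, and 58.6% of the windows in its promoter were unique. Catsper2 was outside it at 63177 bp.

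Among the 8 genes for the acrosome and fertilization, Zpbp and Izumo1 had peaks in the gene. Zpbp encodes a zona pellucida binding protein of the acrosome. Its peak, chr11:11361617-11362366, was 750 bp wide, the widest of the 5 promoter peaks and rank 444 in the list. The center was 420 bp downstream of its only TSS, outside exons, and the peak held 2 sites with at most 1 mismatch. Izumo1 encodes the sperm protein that binds the egg receptor in fusion. Its intronic peak, chr7:52878959-52879366, was 408 bp wide with its center 1981 bp downstream of the TSS, so it was not counted as a promoter peak, and it held no site with up to 2 mismatches. It became a promoter peak when the TSSs of all transcripts of a gene were used. A further peak at 7141 bp was in an exon of Rasip1. Acr, the gene of the acrosomal protease acrosin, had peaks at -11477 and -19867 bp, and both lay within Shank3. The remaining 5 genes had no peak within 40 kb. They were Adam2 at 90141 bp, Adam3 at 133324 bp, Spam1 at 159520 bp, Acrv1 at 223595 bp and Spaca1 at 468106 bp.

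The 4 testis-specific kinases all had a peak within 40 kb. Tssk6 had a promoter peak at chr8:72425133-72425779, 647 bp wide, with its center 627 bp upstream of the TSS. The position is shared with Ndufa13, a subunit gene of respiratory complex I, which starts 374 bp from Tssk6 on the opposite strand. The center lay in an exon of Ndufa13 at 1001 bp downstream of its TSS, just outside its window. A further peak of Tssk6 lay at -8127 bp. Tssk3 had a promoter peak at chr4:129168634-129169215, 582 bp wide, with its center 658 bp upstream. The TSS of 1700125D06Rik is 168 bp away on the opposite strand, and the center was 490 bp downstream of that TSS, closer to it than to Tssk3. The peaks of both kinases were therefore in a neighboring transcription unit. Tssk1 and Tssk2, adjacent on chromosome 16, shared a peak of 261 bp at 34651 and 30217 bp, in the promoter window of the citrate carrier gene Slc25a1, with 85.0% unique windows. Of the heat shock genes, Hspa1l had its nearest peak at 19734 bp and Hspa2, needed for meiosis in males, at 110789 bp. The promoter of Hspa1l, whose TSS lies 579 bp from that of Hspa1a on the opposite strand, had 50.4% unique windows.

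**Figure D3:**
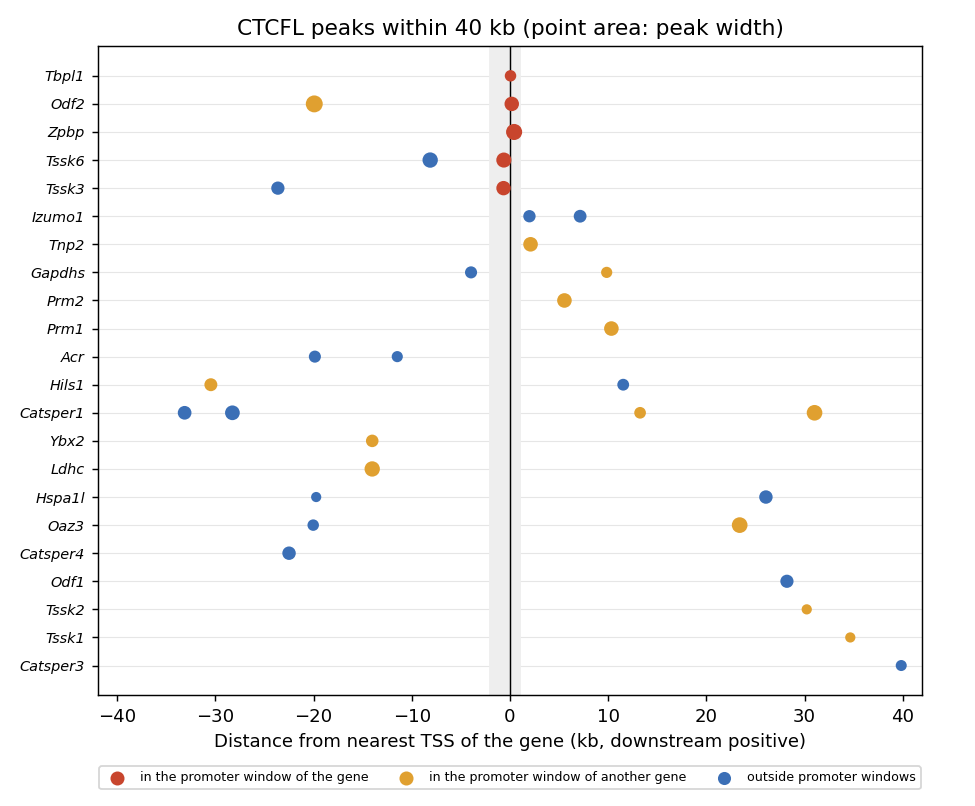
CTCFL peaks within 40 kb of a TSS of the 22 spermatid genes that had any, plotted as the distance in kb from the nearest TSS of the gene with downstream positive; each point is a peak, its area is proportional to peak width, the gray band is the promoter window, and color tells whether the peak is in the window of the gene itself, of another gene or of no gene. For 5 genes a point falls in the band, and Catsper1 has 4 points, all outside it.

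Most peaks near these genes belonged by position to neighbors. The 22 genes had 31 distinct peaks, and for 24 of them the nearest coding TSS was that of a gene outside the list. The nearest TSS was that of a listed gene for 7 peaks. The same split was not made for peaks near other genes, so it cannot be read as particular to this list. The promoter windows of genes outside the list held 11 of the 31 peaks, counting the peak that Tssk3 shares with 1700125D06Rik. By position, 15 were promoter peaks of some gene, 6 were intergenic, 4 were in exons, 3 in introns and 3 at transcript ends. Their median width was 477 bp (range 258 to 841 bp), compared with 454 bp for all peaks. A consensus match with at most 1 mismatch was found in 18 (58.1%) and with at most 2 in 27 (87.1%), compared with 46.7 and 80.0% of all peaks. Under 90% of windows were unique in 3 of the 31 peaks. In the 5 promoter peaks all windows were unique.

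The 5 genes with a promoter peak all had a CpG ratio above 0.4, while most of the 38 did not. The ratio was taken as the ratio of observed to expected CpG dinucleotides within 250 bp on each side of the most upstream coding TSS. The median ratio was 0.325 in the spermatid genes and 0.595 in all genes, while genes with a promoter peak had 0.779. A ratio under 0.4 was found for 25 of the spermatid promoters, and 0 of these 25 had a promoter peak (0 to 13.3%), compared with 3.46% of all genes of this class. From 0.4 to 0.6 there were 6 genes, with a peak at 1, Tssk3, compared with 10.9% of all genes of this class. At 0.6 or more there were 7 genes, and 4 of them had a peak, Odf2, Tssk6, Tbpl1 and Zpbp (57.1%, 25.0 to 84.2%), compared with 17.3% of all genes of this class. The CpG-rich promoters of Ybx2, Crem and Hspa2 had none. Odf2 (0.619) and Tssk6 (0.62) were close to the limit of the class. For Odf2 the ratio is that of its most upstream TSS, whose window did not hold the peak. The protamine and transition protein genes were in the lowest class, with ratios of 0.322 for Prm1, 0.24 for Prm2, 0.392 for Tnp1 and 0.248 for Tnp2. The lowest ratios were those of Akap3 (0.0404), Acrv1 (0.0459) and Smcp (0.0481). Within 40 kb the classes of the 38 genes differed less, with a peak for 13 of 25, 4 of 6 and 5 of 7 genes. Over all genes of any class the share was 41.7%. Shares by class were not made over all genes at 40 kb, so the smaller difference cannot be read as particular to this list. The further spermatid genes described at the end did not show this order of the classes. No test was made between the classes, and their intervals for the 40 kb shares overlapped.

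**Figure D4:**
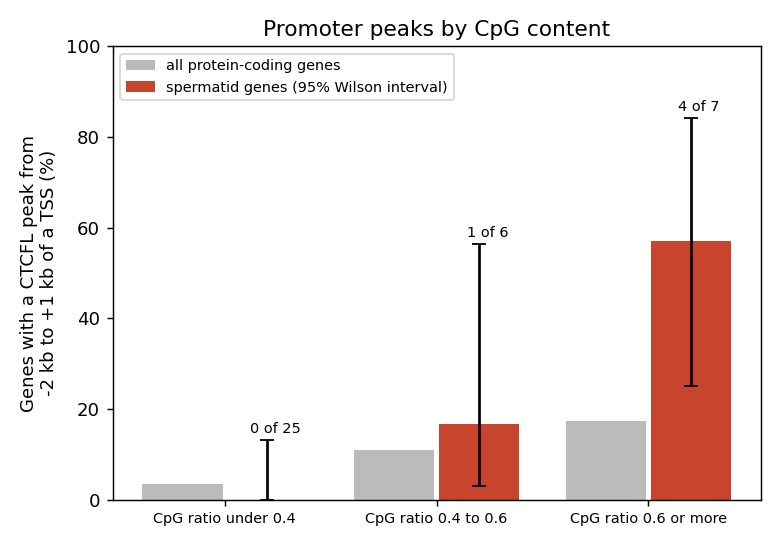
Share of genes (%) with a CTCFL peak from -2 kb to +1 kb of a TSS in 3 classes of promoter CpG ratio, for all protein-coding genes (gray bars) and the spermatid genes (red bars, with 95% Wilson intervals and counts). The spermatid genes have 0 of 25, 1 of 6 and 4 of 7 promoter peaks from the lowest class to the highest, beside 3.46, 10.9 and 17.3% of all genes.

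A nearby promoter of another gene was also recorded. For 4 of the 38 genes another coding TSS lay within 1 kb, and 2 of these, Tssk3 and Tssk6, had a promoter peak, compared with 15.0% of all such genes. Of the other 34 genes 3 had a promoter peak (8.82%), compared with 10.7% of all genes without such a neighbor.

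The promoters of the spermatid genes were also searched for the CRE, as a feature that played no part in the choice of peaks. The full palindrome TGACGTCA from -250 to +50 bp occurred in 2 genes, Izumo1 and Spag6 (5.26%, interval 1.46 to 17.3%), compared with 2.35% of all promoters. TGACNTCA, searched on both strands and including the full palindrome, occurred in 18 genes (47.4%, interval 32.5 to 62.7%), compared with 8.27% of all promoters, a value below this interval. A match is only a description of the letters, and the list was named from genes known in spermatids, so the count is no independent evidence on CREM. Of the 18 genes 1, Tssk3, had a CTCFL promoter peak, and of the 20 without a match 4 had one. From the lowest CpG class to the highest, 11 of 25, 6 of 6 and 1 of 7 genes had a match. Over all genes the shares were 10.9, 6.38 and 6.68%. The highest class, where matches were few, also held 4 of the 5 genes with a promoter peak. The split was not made over all promoters, and a link between match and peak was not tested. A peak within 40 kb was found for 11 genes with and 11 without a match. The match began 94 bp upstream of the TSS in Tnp1 and Gapdhs, 96 bp in Izumo1 and 75 bp in Smcp and Hils1. In Prm1, Akap3 and Acr a match spanned the annotated TSS, beginning at -1. All these positions are counted from the most upstream annotated coding TSS, which may differ from the start used in spermatids. Prm2 and Tnp2 had none in this window. The 250 bases upstream of 4 of these genes, none of which had a promoter peak, are shown in the direction of transcription from mm9 with the CRE-like matches in capitals.
Tnp1 (chr1:73062474-73062723, minus strand): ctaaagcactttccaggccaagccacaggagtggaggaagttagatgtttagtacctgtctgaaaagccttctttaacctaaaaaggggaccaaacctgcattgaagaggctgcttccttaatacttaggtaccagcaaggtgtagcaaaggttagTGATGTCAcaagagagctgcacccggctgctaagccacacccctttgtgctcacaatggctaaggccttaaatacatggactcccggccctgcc
Gapdhs (chr7:31528701-31528950, minus strand): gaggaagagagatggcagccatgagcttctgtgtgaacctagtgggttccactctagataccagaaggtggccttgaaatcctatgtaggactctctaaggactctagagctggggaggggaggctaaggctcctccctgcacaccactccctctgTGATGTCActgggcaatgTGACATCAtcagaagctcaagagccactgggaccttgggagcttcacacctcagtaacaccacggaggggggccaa
Izumo1 (chr7:52876931-52877180, plus strand): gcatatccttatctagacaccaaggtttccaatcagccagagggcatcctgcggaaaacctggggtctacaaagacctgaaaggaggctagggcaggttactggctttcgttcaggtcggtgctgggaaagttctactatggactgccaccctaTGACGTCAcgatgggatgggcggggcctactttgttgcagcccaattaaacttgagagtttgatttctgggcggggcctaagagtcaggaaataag
Smcp (chr3:92392897-92393146, minus strand): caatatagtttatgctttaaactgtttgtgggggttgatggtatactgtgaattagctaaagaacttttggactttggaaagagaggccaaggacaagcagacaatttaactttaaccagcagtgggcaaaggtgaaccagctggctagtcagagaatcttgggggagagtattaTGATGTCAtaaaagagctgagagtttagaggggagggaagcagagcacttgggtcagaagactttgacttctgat
In Gapdhs, matches stand at -94 and -76, and the match in Izumo1 is the full palindrome.

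Lists of other genes gave the counts beside which those of the 38 can be read. Of 83 further spermatid genes found out of 86, 2 had a promoter peak (2.41%, compared with 11.2% of all genes), Aldoa and Tdrd7. Peaks within 40 kb were found for 34 of them (41.0%), a share close to that of all genes, and body peaks for 10. Aldoa encodes the widely used aldolase and Tdrd7 a germ granule protein, and their peaks were centered 4 and 13 bp from a TSS. Unlike the bound genes among the 38, both were in the lowest CpG class, with 2 of 36 genes bound (5.56%). In the middle class 0 of 15 and in the highest 0 of 32 had a promoter peak. Over all genes the shares from the lowest class to the highest were 3.46, 10.9 and 17.3%. With the highest ratio over the TSSs of each gene, both moved to the highest class, which then had 2 of 39 (5.13%), and the lowest had 0 of 33. Of 37 meiosis genes found out of 39, 7 had a promoter peak (18.9%, compared with 11.2% of all genes). These were Sycp2, Syce2 and Rec8, which encode proteins of meiotic chromosome axes and the synaptonemal complex, Mnd1, Psmc3ip and Mei4, which act in meiotic recombination, and Dazl, a germ cell RNA-binding protein. The peak centers lay from 1 bp at Mei4 to 598 bp at Syce2 from a TSS. Stra8, which heads the study's ranking of CTCFL sites by reads, is also in this list. Its nearest peak lay 1238 bp from a GENCODE coding TSS, outside the promoter window used here, and it had a peak in the gene body. The paper places a CTCFL site within the Stra8 promoter, and also reports binding there by direct ChIP, band shifts and ChIP in testis cells. Its gene models were not compared with those used here, so the placement outside the window holds for the GENCODE TSSs only. Of the 37, 29 had a CpG ratio of 0.6 or more, compared with 32 of the 83 further spermatid genes and 7 of the 38. Among these 29 meiosis genes, 5 had a promoter peak (17.2%), a share near the 17.3% of all genes of that class. In the middle class 2 of 5 meiosis genes had one, and in the lowest 0 of 3. The 15 widely expressed paralogs were those found out of 17 listed. The shares of the lists were not tested against each other.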

How the data were processed

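ChIP-sequencing was done by the authors on mouse ES cells with 1 library per condition. Per the methods, 36-base reads were mapped with ELAND, and in a comparative analysis with BOWTIE to mm9 with uniquely mapped reads kept and peaks called by MACS at a threshold on the false discovery rate. Which of these made the list is not given in the sources used here. The deposited list holds the start and end of each CTCFL peak, in bp on mm9, with no height, so depth per peak is unknown. It is longer than the set of CTCFL sites the study describes, and the step between them is not given in the sources used here.

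Peak centers were compared with coding transcripts of GENCODE (NCBIM37, the same build) in Python 3.11.15 with numpy 2.4.6, pandas 2.3.3 and pysam 0.24.0. Genes on the 21 chromosomes of the list were used. Uniqueness was the share of 36-base windows found once in the genome. The consensus came from peaks against windows 2 kb away. The counting and the consensus search were tested on simulated data. Wilson intervals (scipy 1.17.1) cover counting error only, and no test between conditions was possible.

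All 38 genes are named, those with a promoter or body peak in full, and of the other lists the genes with a promoter peak. Gapdh, Ldhb, Stra8 and neighbors were singled out after their values were seen. The genes and lists were chosen with earlier results of these data known. The alternatives were the TSS set, window size, overlap, peak width, peak uniqueness, merging, CpG window and mismatches.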

Additional observations from a re-analysis of the deposited data

How the results depend on the processing

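Of 27 alternatives over 7 results, 20 left the count or median within 1.5 times of the value given above and 7 moved it. Some of the 20 could not move. The body count uses no TSS, so the TSSs of all transcripts left it the same. The count of 0 in the lowest CpG class was also fixed in advance, as described below. With peaks at or above the median width only, body peaks fell to 2 genes (5.26%, all genes 8.69%), peaks within 40 kb to 14 genes (36.8%, all genes 27.7%), and the median distance was 65897.5 bp (all genes 137482 bp). A promoter window of -500 to +500 bp gave 3 genes (7.89%, all genes 8.19%), without Tssk3 and Tssk6, and -5 to +5 kb gave 8 (21.1%, all genes 15.5%), adding Gapdhs, Izumo1 and Tnp2. The gene body without the promoter window left 1 gene, Izumo1 (2.63%, all genes 10.1%). With no mismatch allowed, 2 peaks matched the consensus. With peaks of at least 90% unique windows only, 19 of 38 genes had a peak within 40 kb (34.8 to 65.2%, all genes 39.9%), without Odf1, Tssk1 and Tssk2. The share of all genes near a peak lay outside the Wilson interval of the 38 genes also with any overlap or merged peaks, but inside it with all transcript TSSs (42.9%), wide peaks (23.4 to 52.7%), unique peaks, 20 kb and 100 kb.

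The CpG class was also taken from the highest ratio over the TSSs of a gene, an alternative chosen after seeing the data. The lowest class then held 23 of the genes with 0 promoter peaks (1.99% of all genes of this class), and the highest held 10 with 4 (17.5%). These 23 were also in the lowest class by the most upstream TSS, so their count of 0 could not change. No paired analysis was possible because there was only 1 library of each kind, which also left no replicate to omit.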
